A study of Homo sapiens with 10 samples.

Results

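The 8 genes described here code for enzymes that make or prepare the deoxynucleotides used in DNA synthesis: RRM1, RRM2, RRM2B, TYMS, TK1, DUT, DTYMK and DCK. They were taken by gene symbol from a table of 20030 genes, all 8 were found, and all 8 were among the 10477 genes whose mean over the libraries reached 1 FPKM (fragments per kilobase of transcript, scaled to library size). The RNA came from Huh7, PLC and 97H, 3 lines of human liver cancer cells, each given vehicle (called control here) or a CDK4/6 inhibitor. PLC and 97H were also given an XPO1 inhibitor or both inhibitors together (the combination), so that there were 10 libraries, 1 for each line and treatment. The study title names senescence induced by blocking both targets. CDK4 and CDK6, the partners of D-type cyclins, push cells from G1 into S phase, and XPO1 is the nuclear export receptor. The sample titles give the XPO1 inhibitor as KPT330, while the sources used here do not name the CDK4/6 inhibitor. Doses and times are not given. Each line stands for itself, since no line has a second culture of a treatment.

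Deoxynucleotides are made from ribonucleotides by ribonucleotide reductase, a complex of the large subunit RRM1 with a small subunit, either RRM2, which is made in S phase and destroyed at mitosis and in G1, or RRM2B, the p53-inducible form that serves cells outside S phase. Thymidylate comes either from dUMP through TYMS, for which DUT supplies substrate by cleaving dUTP, or from thymidine through the salvage kinase TK1, and DTYMK then phosphorylates the product of both routes. DCK is the salvage kinase for deoxycytidine and for purine deoxynucleosides. Transcription of several of these genes is known to rise as cells enter S phase, through E2F factors that the retinoblastoma protein holds back until it is phosphorylated by CDK4 and CDK6.

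Relative depth, read from the steps between low FPKM values, ran from 0.871 to 1.13 times that of the PLC combination library, an estimate resting on 2.05% to 8.21% of low genes, and 14033 to 15264 genes were above 0, while the absolute depth is unknown. The summed level of 10 hepatocyte genes was 6895 to 9365 FPKM in Huh7, 821 to 2449 in PLC and 27.2 to 63.9 in 97H, so that the hepatocyte character of 97H was weak by these markers. ALB reached at most 15.9 FPKM in 97H and 9.74 FPKM in PLC. The leucocyte genes PTPRC and CD3E were at or near 0 in every library. Of the myeloid markers in the same list, CD14 reached 2.135 FPKM in Huh7 with the CDK4/6 inhibitor. CD68, used as a macrophage marker, ran from 2.77 FPKM in Huh7 control to 127 FPKM in the PLC combination library. The summed level of 12 genes of other cell types was higher under the combination than in control, 129 against 23.7 FPKM in PLC, most of it CD68, and 785 against 540 FPKM in 97H, most of it KRT19. All 6 of these genes that could be tested had estimates above 0, with a median log2 difference of 1.23 against 0.07 over all tested genes, and 4 had an unadjusted p under 0.05, but none was called, and their part in the results was not tested.

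In control cells TYMS, TK1, DTYMK and RRM2 were the 4 most abundant members in each line on the FPKM scale, which is per transcript length. TYMS stood at 115 FPKM in Huh7, 107 in PLC and 43.1 in 97H. RRM2B was the lowest member in all 3 control libraries, at 2.395 FPKM in Huh7, 1.53 in PLC and 2.47 in 97H. The small subunit RRM2 thus exceeded its alternative RRM2B in all 3 controls, with 96.2, 27.0 and 36.2 FPKM in the same order. RRM1, DUT and DCK lay between, with controls of 12.8 to 31.4, 9.19 to 19.4 and 6.52 to 10.1 FPKM. With 1 library for a line and treatment, no neighbours in these orders could be told apart by a replicate within a line.

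**Figure D1:**
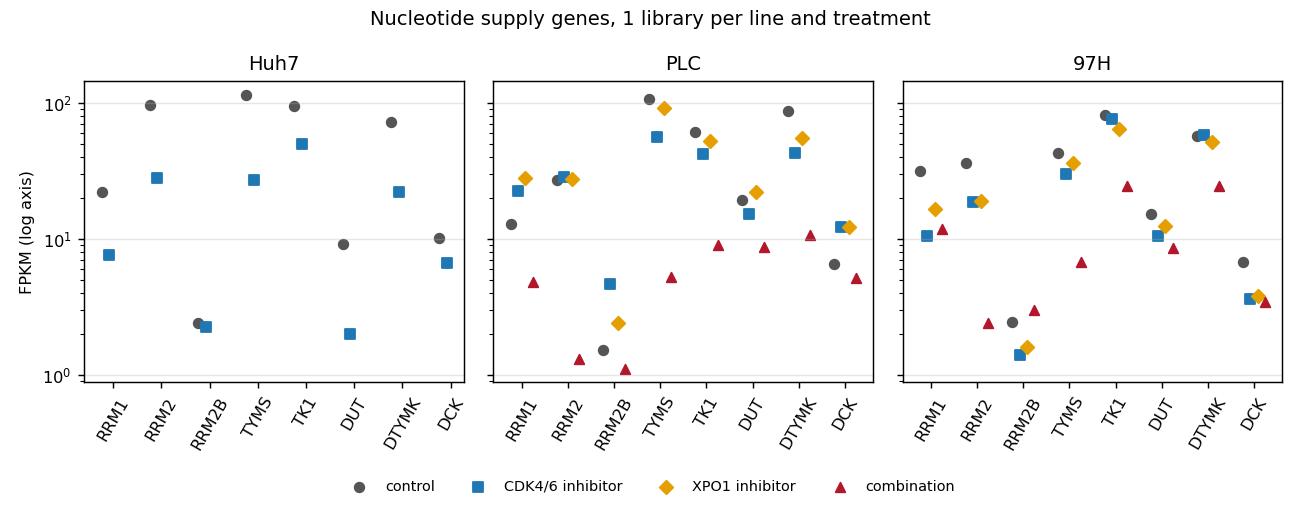
FPKM of the 8 members on a log axis in each of the 10 libraries, 1 panel per cell line and 1 point per library, with no error bars because a line has 1 library per treatment. Under the combination RRM2 lay at 1.31 FPKM in PLC and 2.41 FPKM in 97H, near the level of RRM2B.

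Of the 8 members, 7 (all but RRM2B) had promoter windows in the RefSeq table for GRCh38.p14, 12 windows in all. Each window reached from 250 bases before a transcript start to 50 after it. Windows were searched on both strands for 4 E2F-type words. These were the common form TTCCCGC, the alternative form TTGGCGC, the form with a central pair of CG letters, TTCGCGC, and the form TTGCCGC. The other words were CCAAT, bound by NF-Y, and the cell cycle homology region word TTTGAA. An E2F-type word was present in 6 of the 12 windows, from 6 of the 7 members, while 13.0% of all 35116 windows held one. CCAAT was present in 5 windows from 4 members against 34.6% of all windows, and TTTGAA in 2 windows against 15.2%; no E2F-type word overlapped a CCAAT word. The percentages are shares of windows, and no share per gene was computed to set beside the counts of members. Several windows of a gene overlap each other, and a match describes letters only. The windows below belong to the 3 members that fell under the combination and to DCK, which did not pass the test, and capitals mark E2F-type words and CCAAT or their reverse complements.
RRM2, plus strand of chr2:10122489-10122788, with CCAAT 123, 93 and 66 bases before the start: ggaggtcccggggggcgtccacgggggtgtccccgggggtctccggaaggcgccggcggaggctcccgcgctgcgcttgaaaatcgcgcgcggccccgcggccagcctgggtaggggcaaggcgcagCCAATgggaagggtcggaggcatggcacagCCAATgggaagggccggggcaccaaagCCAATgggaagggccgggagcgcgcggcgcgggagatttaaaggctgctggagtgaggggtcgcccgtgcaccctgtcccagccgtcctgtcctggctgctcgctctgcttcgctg
TYMS, plus strand of chr18:657403-657702, with an E2F-type word 39 bases before the start: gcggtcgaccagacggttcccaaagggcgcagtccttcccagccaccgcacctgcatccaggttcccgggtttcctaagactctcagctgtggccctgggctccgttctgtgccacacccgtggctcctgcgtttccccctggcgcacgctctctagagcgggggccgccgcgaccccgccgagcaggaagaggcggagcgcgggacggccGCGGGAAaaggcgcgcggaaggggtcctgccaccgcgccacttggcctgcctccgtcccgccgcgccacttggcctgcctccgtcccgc
TK1, minus strand of chr17:78187003-78187302, with CCAAT 77 and 46 bases and an E2F-type word 12 bases before the start: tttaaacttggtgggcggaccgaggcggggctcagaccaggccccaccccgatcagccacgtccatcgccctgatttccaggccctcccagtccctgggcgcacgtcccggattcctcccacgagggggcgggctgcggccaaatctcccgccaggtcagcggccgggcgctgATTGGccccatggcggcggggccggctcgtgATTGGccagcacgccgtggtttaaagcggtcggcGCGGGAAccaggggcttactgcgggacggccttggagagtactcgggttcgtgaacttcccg
DCK, plus strand of chr4:70993399-70993698, with E2F-type words 192 and 88 bases before the start and 22 bases after it: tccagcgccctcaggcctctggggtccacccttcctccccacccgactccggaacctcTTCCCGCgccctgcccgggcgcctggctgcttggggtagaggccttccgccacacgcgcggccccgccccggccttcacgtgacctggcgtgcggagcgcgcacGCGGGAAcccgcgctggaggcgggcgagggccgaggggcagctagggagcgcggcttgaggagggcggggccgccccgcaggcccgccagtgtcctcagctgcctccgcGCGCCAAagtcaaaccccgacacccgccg
The RRM2 window shown had 3 CCAAT words, and its E2F-type word lay in a second window that starts farther upstream. DCK had 3 E2F-type words, more than any other window of a member.

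The combination gave the largest differences from control among the members. RRM2, TYMS and TK1 fell, and all 8 members had an estimated log2 difference below 0 (log2 of FPKM + 1, limma, cell line as a block, 8 libraries of PLC and 97H). A gene was called at a Benjamini-Hochberg adjusted p under 0.05 over all 10477 tested genes, and 0.792% of them were called, 0.487% in the lower direction, against 3 of 8 members, all lower. At an unadjusted p under 0.05 there were 12.4% of the tested genes, 6.07% in the lower direction, and 5 members, all lower. The median log2 difference was -1.67 over the members and 0.07 over all tested genes. The members were chosen with earlier results of these data known, so these shares and medians are descriptions and not a test. In bulk RNA, fewer cells of a type, here cells in S phase, and less RNA per cell cannot be told apart. PLC and 97H are 2 lines with 1 culture per treatment. The p-values therefore rest on how far the 2 lines differ in their responses to treatment, with variances moderated across genes, and not on repeat cultures.

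RRM2, the S phase small subunit, was at 27.0 FPKM in PLC control, 28.3 under CDK4/6 inhibition, 27.4 under XPO1 inhibition and 1.31 under both. In 97H it was at 36.2, 18.5, 19.1 and 2.41 FPKM in the same order. The combination libraries were the lowest in both lines, 20.5-fold below control in PLC and 15.0-fold in 97H, and did not overlap with any other library. The log2 difference from control was -3.52 (SE 0.40, adjusted p = 0.0198 by limma), and 0.00954% of the tested genes had a lower one.

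RRM1, the large subunit, was at 12.8 FPKM in PLC control, 22.5 under CDK4/6 inhibition, 28.1 under XPO1 inhibition and 4.85 under both. The 97H values were 31.4, 10.5, 16.6 and 11.9 FPKM. In PLC the combination library was the lowest, but in 97H it lay between the single inhibitors. The combination was 2.64-fold below control in both lines, with a log2 difference of -1.28 (SE 0.58, adjusted p = 0.418 by limma), which did not pass the test. The RRM1 value rested on single libraries, at -0.57 without the 97H control, -0.63 without the PLC combination, -1.94 without the 97H combination and -2.0 without the PLC control.

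RRM2B, the p53-inducible small subunit, was at 1.53 FPKM in PLC control, 4.68 under CDK4/6 inhibition, 2.399 under XPO1 inhibition and 1.11 under both. The 97H libraries had 2.47, 1.40, 1.62 and 2.99 FPKM. The lines ordered the treatments differently, and the combination library was the lowest of PLC and the highest of 97H. The log2 difference of the combination from control was -0.03 (SE 0.50, 95% interval -1.17 to 1.11, adjusted p = 0.995 by limma), an interval that still holds a 2-fold change either way.

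TYMS, thymidylate synthase, was at 107 FPKM in PLC control, 56.3 under CDK4/6 inhibition, 91.1 under XPO1 inhibition and 5.25 under both. For 97H the values were 43.1, 29.8, 36.5 and 6.80 FPKM. Both lines had the same order, with control highest and the combination lowest, 20.4-fold below control in PLC and 6.33-fold in 97H. The log2 difference was -3.30 (SE 0.42, adjusted p = 0.0228 by limma). TYMS overlaps ENOSF1 on the opposite strand over 3255 bases and TYMSOS over 737 bases in GENCODE 29, and whether reads were counted by strand is not known here. ENOSF1 was at 1.47 to 4.97 FPKM over the 10 libraries, and TYMSOS at 0.375 to 5.01 FPKM.

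TK1, thymidine kinase, was at 61.2 FPKM in PLC control, 41.8 under CDK4/6 inhibition, 52.3 under XPO1 inhibition and 8.99 under both. The order in 97H was the same except for the single inhibitors, with 81.2, 75.6, 63.8 and 24.5 FPKM. The combination libraries were again below the other libraries of their line, 6.81-fold below control in PLC and 3.31-fold in 97H, with a log2 difference of -2.16 (SE 0.33, adjusted p = 0.0345 by limma). TK1 under the combination in 97H stayed above the combination level of PLC.

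DTYMK, thymidylate kinase, was at 87.1 FPKM in PLC control, 42.6 under CDK4/6 inhibition, 54.9 under XPO1 inhibition and 10.8 under both. The values in 97H were 57.5, 57.7, 51.3 and 24.6 FPKM, so that the single inhibitors stayed close to control there. The combination was lowest in both lines, 8.10-fold below control in PLC and 2.34-fold in 97H, but the log2 difference of -2.05 (SE 0.40, adjusted p = 0.0705 by limma) missed the threshold.

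DUT, the dUTPase, was at 19.4 FPKM in PLC control, 15.4 under CDK4/6 inhibition, 21.99 under XPO1 inhibition and 8.68 under both. In 97H it was at 15.4, 10.4, 12.4 and 8.57 FPKM. The combination was the lowest in both lines, with a log2 difference of -0.93 (SE 0.35, adjusted p = 0.319 by limma). DCK was at 6.52, 12.2, 12.3 and 5.16 FPKM in PLC and at 6.82, 3.64, 3.82 and 3.42 FPKM in 97H, with a difference of -0.55 (SE 0.49, adjusted p = 0.739 by limma). In 97H the 3 DCK libraries given an inhibitor lay close together, and in PLC the single inhibitors were above control. GENCODE 29 names 8 pseudogenes of DUT, 3 of RRM2 and 2 of TYMS, and reads shared with such copies make these levels less certain. RRM2 overlaps the protein-coding AC007240.1 on the same strand over 8681 bases in GENCODE 29, and no level was matched to that gene. RefSeq ends RRM2 at base 10211010 of chromosome 2 and GENCODE 29 at base 10131419, and which model the RRM2 values were counted on is not known here. DCK overlaps MOB1B on the same strand, and MOB1B was at 0.127 to 0.801 FPKM in these libraries.

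**Figure D2:**
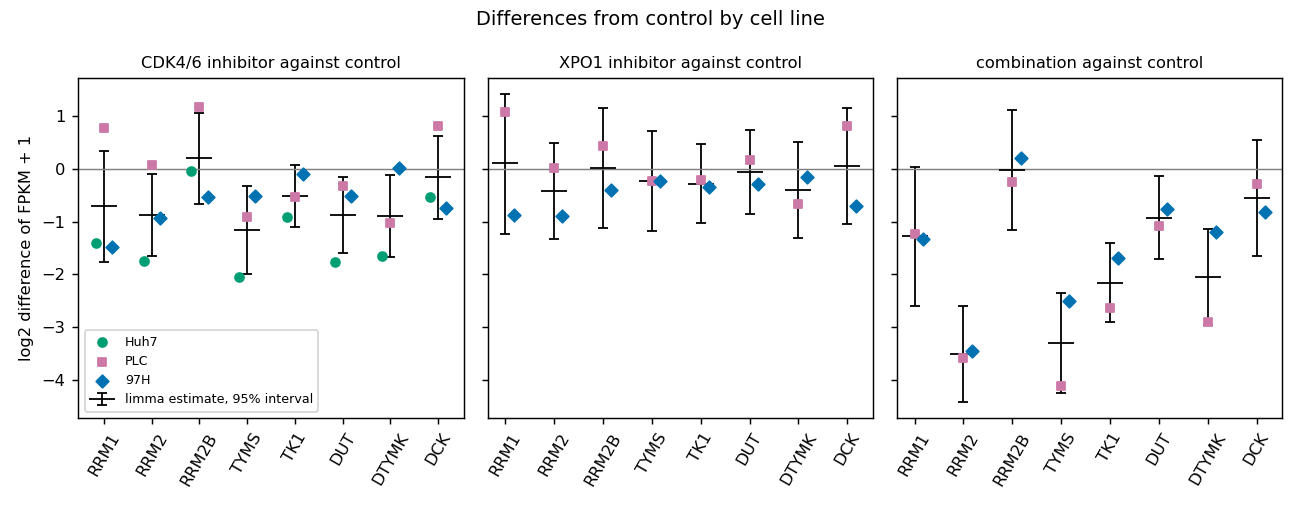
Log2 difference in FPKM + 1 of each member, with limma estimates and 95% intervals for the comparisons and 1 point per cell line. The estimates of RRM2, TYMS and TK1 for the combination against control, -3.52, -3.30 and -2.16, lie farthest below 0 and RRM2B lies near 0.

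The calls under the combination rested on particular settings and libraries. With no filter on low values, and likewise without the cell line as a block, 0 members were called by limma, while DTYMK was called as well, at an adjusted p of 0.00972 by limma, once trends with GC content and length were removed. Without the PLC control library or the PLC combination library, 0 members and 0 genes in all were called by limma, and without the 97H combination library TYMS was the 1 member called, of 2 genes. Across the 8 fits that each left out 1 library, the log2 difference ranged from -3.91 to -3.13 for RRM2, from -4.05 to -2.56 for TYMS and from -2.59 to -1.74 for TK1.

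With the CDK4/6 inhibitor alone, which all 3 lines received, no member was called, and limma called 0 of the 10477 genes (10 libraries, cell line as a block). At an unadjusted p under 0.05 there were 922 genes, 8.8% of those tested and 4.23% in the lower direction, and 4 members, all lower. These 4 were TYMS with a log2 difference of -1.16 (SE 0.37), DTYMK with -0.89 (SE 0.35), RRM2 with -0.87 (SE 0.35) and DUT with -0.87 (SE 0.32), with adjusted p of 0.492 to 0.532 by limma. The others were RRM1 at -0.71, TK1 at -0.52, DCK at -0.16 and RRM2B at 0.20. The comparisons of each inhibitor and of the combination share their control libraries.

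The members' median difference under this inhibitor was lowest in Huh7. In Huh7 all 8 members were below control, with a median log2 difference of -1.54 where all tested genes had -0.04. There TYMS went from 115 to 27.0 FPKM, RRM2 from 96.2 to 27.9, DTYMK from 71.8 to 22.01 and TK1 from 94.8 to 49.8. RRM1 went from 22.1 to 7.66 FPKM, DUT from 9.19 to 2.004, DCK from 10.1 to 6.68 and RRM2B from 2.395 to 2.27. In 97H 7 members were lower and the median was -0.52, and in PLC 4 were lower and 4 higher, with a median of -0.12. TYMS, TK1 and DUT were lower than control in all 3 lines. With GC content and length trends removed, TK1 stood at 0.04 in PLC, while TYMS, DUT, RRM2 and DTYMK were lower in all 3 lines. Of the 8 members, 5 were then lower in PLC and 8 in 97H. The difference between lines was not tested, since a line has 1 pair of libraries.

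RRM1, RRM2B and DCK were higher with the CDK4/6 inhibitor than in control in PLC, by 0.77, 1.17 and 0.81 on the log2 scale. Library values in these lines also followed the GC content of transcripts across genes, and its part in these 3 differences was not tested. Across 10421 genes, the deviation of a library from its line mean correlated with GC content at a Spearman rho of 0.60 in PLC control, -0.636 with the CDK4/6 inhibitor and -0.667 with the XPO1 inhibitor, and at -0.527 in 97H control and 0.674 with the CDK4/6 inhibitor. RRM2B, DCK and RRM1 had the lowest GC content of the members, 36.4%, 38.8% and 43.5%, and TK1 the highest, 62.8%. After the trends with GC content and length were removed from each library, the 3 PLC differences were 0.02, 0.30 and -0.01 for RRM1, RRM2B and DCK.

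With the XPO1 inhibitor alone, the members' log2 differences from control ran from -0.43 for RRM2 to 0.10 for RRM1. No member was called by limma, 0 of 10477 genes were called, and 258 genes, 2.46% of those tested and 0.668% in the lower direction, but no member, had an unadjusted p under 0.05. In 97H all 8 members were below control, with a median of -0.38, and in PLC 5 were above it, with a median of 0.10 where all tested genes had 0.14. With GC content and length trends removed, 3 of the 8 were above control in PLC, with a median of -0.24. The 95% interval for RRM2, -1.34 to 0.48, leaves room for a fall of more than 2-fold. TYMS, at -0.23 (95% interval -1.18 to 0.71), and TK1, at -0.28 (95% interval -1.03 to 0.47), kept intervals that include 0.

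Set against the CDK4/6 inhibitor alone, the combination had lower estimates for all 8 members, with a median of -1.23 where all tested genes had -0.01. RRM2 differed by -3.09 (SE 0.40, adjusted p = 0.081 by limma), TYMS by -2.59 (SE 0.42, adjusted p = 0.177) and TK1 by -1.84 (SE 0.33, adjusted p = 0.202). Of all tested genes 0 were called by limma in this comparison, and 345 genes, 3.29%, had an unadjusted p under 0.05, with 1.99% of those tested lower, and 4 members, all lower. With the GC content and length trends removed, RRM2, TYMS and TK1 were called, with adjusted p of 0.0118, 0.0353 and 0.0365 by limma, among 52 genes in all.

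Against the XPO1 inhibitor alone the combination likewise had lower estimates for all 8 members. RRM2 differed by -3.09 (SE 0.40, adjusted p = 0.115 by limma), TYMS by -3.07 (SE 0.42, adjusted p = 0.122), TK1 by -1.88 (SE 0.33, adjusted p = 0.187) and DTYMK by -1.64 (SE 0.40, adjusted p = 0.455). Here too 0 of all tested genes were called by limma, and 520 genes, 4.96%, had an unadjusted p under 0.05, with 2.81% of those tested lower, and 6 members, all lower. With the trends removed these 4 members were called, among 64 genes.

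An additive effect of the 2 inhibitors was compared with the observed one with an interaction term on the log2 scale. All 8 members had estimates below 0, which means lower under the combination than the sum of the single differences. The median over all tested genes was -0.11. The lowest was RRM2 at -2.66 (SE 0.57, 95% interval -3.95 to -1.37), which ranked first by p among the tested genes but had an adjusted p of 1 by limma. TYMS stood at -2.36 (SE 0.59) and TK1 at -1.56 (SE 0.47), and these 3 were the members with an unadjusted p under 0.05. Of all tested genes 0 were called by limma and 60, or 0.573%, had an unadjusted p under 0.05, with 0.515% of those tested lower. RRM2, TYMS, TK1 and DTYMK departed downwards in both lines, RRM2 by -3.68 in PLC and -1.63 in 97H and TYMS by -2.97 and -1.74. RRM1 departed by -3.08 in PLC and 1.04 in 97H, and RRM2B by -1.86 and 1.14. DCK departed by -1.92 and 0.63, and DUT by -0.93 and 0.04. On the values as deposited, the estimates of RRM1, RRM2B, DCK and DUT thus averaged opposite values. With GC content and length trends removed, RRM1 departed by -2.04 in PLC and 0.55 in 97H, and RRM2B by -0.42 and 0.43. DCK then departed by -0.51 and -0.12, and DUT by 0.1 and -0.42. RRM2, TYMS, TK1 and DTYMK still departed downwards in both lines.

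Ratios of FPKM within a library do not depend on how the libraries were scaled. The ratio of RRM2 to RRM1 was 2.10 in PLC control, 1.26 under CDK4/6 inhibition, 0.977 under XPO1 inhibition and 0.271 under both. In 97H it was 1.15, 1.77, 1.15 and 0.203, and in Huh7 4.36 in control and 3.64 with the CDK4/6 inhibitor. The 2 combination libraries had the lowest ratios of the 10. In the other 8 libraries the small subunit transcript was close to or above that of the large subunit on the FPKM scale. The level of this ratio depends on the gene lengths used, and which RRM2 model was counted is not known here.

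The ratio of RRM2B to RRM2 was 0.0566 in PLC control, 0.165 under CDK4/6 inhibition, 0.0875 under XPO1 inhibition and 0.848 under both. In 97H it was 0.0682, 0.0757, 0.0845 and 1.24, and in Huh7 0.0249 and 0.0813. Under the combination the small subunit transcripts thus stood at similar FPKM levels, with RRM2 lower than in control in both lines and RRM2B not called. The level of this ratio likewise depends on the RRM2 model counted. The ratio of TK1 to TYMS, salvage to new synthesis, was 0.572, 0.742, 0.574 and 1.71 in PLC in the same order of treatments and 1.88, 2.53, 1.75 and 3.6 in 97H. In Huh7 it was 0.826 in control and 1.84 with the CDK4/6 inhibitor, so that it was above control in each line wherever the CDK4/6 inhibitor was given. TK1 is richer in GC than TYMS, and with the GC content and length trends removed the log2 change of this ratio under the CDK4/6 inhibitor alone was -0.05 in 97H, 1.08 in PLC and 1.10 in Huh7, against 0.42, 0.37 and 1.14 on log2(FPKM + 1).

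**Figure D3:**
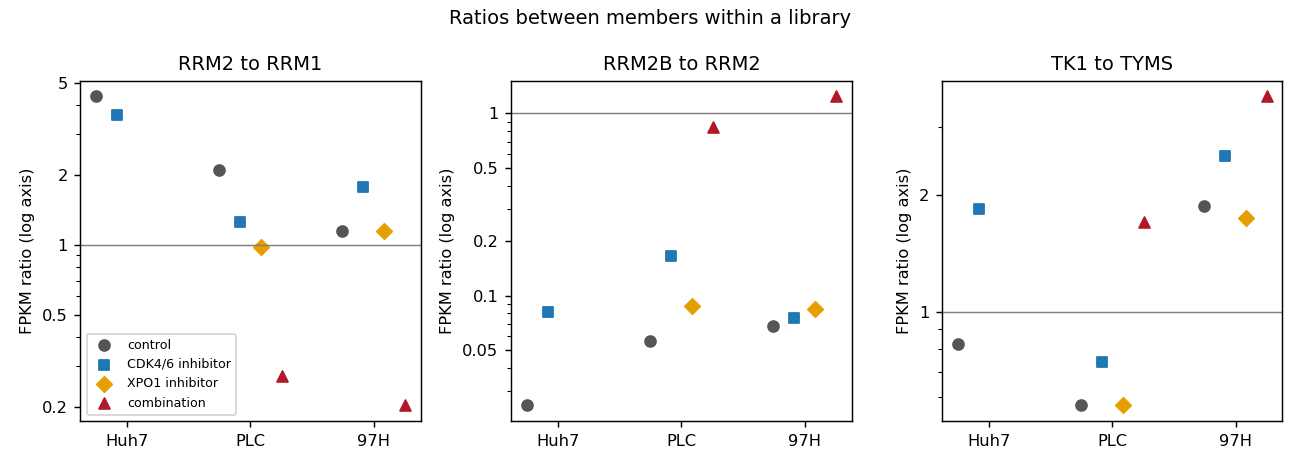
FPKM ratios of RRM2 to RRM1, RRM2B to RRM2 and TK1 to TYMS on log axes, 1 point per library, grouped by cell line. The combination libraries have the lowest RRM2 to RRM1 ratios, 0.271 in PLC and 0.203 in 97H, and the highest RRM2B to RRM2 ratios, 0.848 and 1.24.

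Members differed in how closely they moved together. After the mean of each line was subtracted, log2(FPKM + 1) over the 10 libraries gave a Pearson r of 0.987 between TYMS and TK1, 0.974 between RRM2 and TK1, and 0.970 between RRM2 and TYMS. RRM1 was most like DCK, at 0.945, and RRM2B had 0.272 with RRM2 and 0.678 with DCK. These libraries share lines, treatments and the GC trends above, so the values are descriptions of 10 points. Over all tested genes, those most like RRM2 included KIF2C, OIP5, CENPA and CCNB2, with r of 0.987 to 0.997. KIF2C is a mitotic kinesin, CENPA the histone of centromeres and CCNB2 a mitotic cyclin. Those most like TK1 were BIRC5, TYMS, GINS3, CDCA3 and TCF19, at 0.978 to 0.994. Those most like RRM2B were ARMT1, NEDD4, COX7B2, CMPK1 and ZNF675, at 0.970 to 0.979.

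No gene of the other nucleotide lists had as large an estimate under the combination as RRM2, TYMS or TK1. Of 12 genes of purine synthesis, 1 was called: IMPDH2, the enzyme that commits IMP to guanine nucleotides, fell and stood at 206 FPKM in PLC control and 60.3 under both inhibitors, and at 75.6 and 19.4 FPKM in 97H. Its log2 difference was -1.83 (adjusted p = 0.0345 by limma). All 12 had estimates below 0, with a median of -0.59. Of 5 genes of pyrimidine synthesis none was called, with CTPS1, CTP synthase, at -1.31 (adjusted p = 0.096 by limma), DHODH at -1.12 and a median of -0.58. Of 10 genes of the folate cycle, which supplies the methylene group that TYMS transfers, none was called, and the smallest p belonged to MTHFD1 at -0.93 and SHMT2 at -0.56 (median -0.51).

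Among 19 salvage and kinase genes none was called, and the median was -0.13, near that of all genes. NME1, a nucleoside diphosphate kinase, stood at -1.10 and UCK2, a uridine and cytidine kinase, at -1.17. Among 15 genes that break nucleotides down or clear damaged ones none was called, with a median of -0.41. CDA, cytidine deaminase, stood at 1.72 and NUDT1, which hydrolyses oxidised purine nucleotides, at -1.23. CDA was at 0.653 FPKM in PLC control and 2.38 with the combination, and at 13.3 and 74.7 FPKM in 97H, above control in both lines.

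The 29 genes of origin licensing and the replication fork had a median of -1.59, near that of the members. Of these, 8 fell and none rose, and 28 of the 29 estimates were below 0. GINS2 and CDC45, parts of the replicative helicase, differed by -2.82 and -2.46, PCNA, the sliding clamp, by -2.24 and MCM4, a helicase subunit, by -1.89, with adjusted p of 0.0288 to 0.0345 by limma. The other 4 were MCM2, MCM7, ORC1 and CDT1. Further helicase genes, such as MCM5 at -1.90 and GINS3 at -1.61, were not called. The polymerase subunits POLA1 at -0.30, POLE at -0.85, POLD1 at -1.11 and POLA2 at -1.59 and the primase PRIM1 at -2.19 were not called either. These uncalled genes and the other 4 called genes were named after their values were seen. Whether the members' share of calls differs from that of the fork genes was not tested. Of 5 proliferation markers, CCNB1, PCNA and MCM2 fell, by 2.22, 2.24 and 1.76 on the log2 scale, while MKI67 stood at -1.96 (adjusted p = 0.0876 by limma) and TOP2A at -1.99. Their summed level was 238 FPKM in PLC control and 47.9 with the combination, and 278 and 68.95 FPKM in 97H; the part that the share of cycling cells plays in the members' values was not tested.

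**Figure D4:**
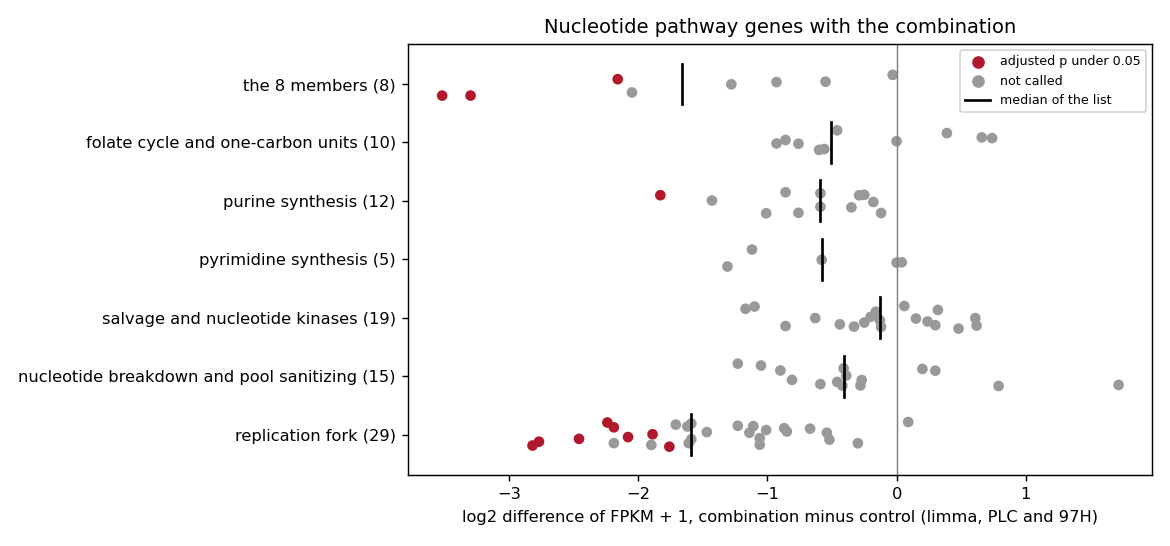
Log2 difference of the combination from control for the members and for the genes of each pathway list, 1 point per gene, red where called, with a bar at the median of each list. The medians of the members, -1.67, and of the replication fork genes, -1.59, lie below those of the other nucleotide lists, -0.59 to -0.13.

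With the CDK4/6 inhibitor alone, none of the genes in these lists was called by limma. All 29 fork genes had estimates below 0, with a median of -0.67, near the members' median of -0.79. The smallest p in that list belonged to MCM7 at -1.29 and PRIM1, the primase, at -1.51. IMPDH2 stood at -0.88 and PFAS at -0.94 among the purine genes, DHODH at -0.70 and CTPS1 at -0.41 among the pyrimidine genes, and SHMT2 at -0.65 and SLC19A1, the folate carrier, at -0.70. HPRT1 at -0.86 and NME1 at -0.56 led the salvage list, and CDA at 1.26 and DCTPP1 at -0.74 the breakdown list. The summed level of the 5 proliferation markers was 397 FPKM in Huh7 control and 111 with the inhibitor, 238 and 180 FPKM in PLC, and 278 and 167 FPKM in 97H. Huh7 thus had both the lowest ratio of this sum to control and the lowest median of the members. In PLC the markers were divided: MKI67 went from 2.92 to 3.74 FPKM and TOP2A from 2.97 to 7.79, while CCNB1, PCNA and MCM2 were lower than control. A link between these markers and the members was not tested.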

How the data were processed

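Per the labels' protocols, total RNA was taken with Trizol and libraries were made with a TruSeq RNA kit. Per the submitters' processing notes, the tools were CASAVA 1.8.2, STAR 2.4.2g1 and featureCounts of Subread, with the build GRCh38. The authors deposited 1 table of FPKM values for 10 libraries; how FPKM was made from counts, and whether strand was used, is not given in the sources used here. Absolute depth is therefore unknown, and no counting intervals are given.

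From these values, 27 symbols changed into dates were restored, and genes whose mean reached 1 FPKM were kept. log2(FPKM + 1) was fitted with limma 3.58.1 in R 4.3.3 (trended variances, cell line as a block, two-sided), with p-values adjusted by Benjamini-Hochberg over 10477 genes. A fold change on this scale understates that of low genes; folds within a line are plain FPKM ratios. The fit was tested on simulated data. Libraries were paired by cell line, taken from the labels, since replicate numbers match lines between control and the CDK4/6 inhibitor but not in the other groups, which lack Huh7. For control and the CDK4/6 inhibitor, deviations from the group means correlated across genes at 0.901 in Huh7, 0.665 in PLC and 0.818 in 97H.

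The members and lists were chosen with earlier results of these data known. Named were all members, up to 4 called genes of a list or else the 2 with the smallest p, the 5 genes most like RRM2, TK1 and RRM2B, of which 1 is not reported here, and 5 proliferation markers. Alternatives were a pseudocount of 0.1, no filter, no block, median ratio scaling, removal of GC content and length trends (99.5% of tested genes had both), other libraries in the fit, and leaving out each library.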

Additional observations from a re-analysis of the deposited data

Results flagged for a closer look

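In these results the lines moved in opposite directions, each by at least 0.5 on the log2 scale; the difference was not tested, since a line has 1 library per treatment. For the CDK4/6 inhibitor against control, RRM1 was lower in Huh7 and 97H and higher in PLC, a difference of -2.18 for Huh7 minus PLC and of 2.26 for PLC minus 97H. DCK had the same directions, with -1.34 and 1.56. RRM2B was higher in PLC and lower in 97H, a difference of 1.70.

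For the XPO1 inhibitor against control, RRM1 and DCK were higher in PLC and lower in 97H, with differences of 1.95 and 1.52 for PLC minus 97H. RRM2B under the combination was lower in PLC and higher in 97H than with the CDK4/6 inhibitor, a difference of -2.16, and than with the XPO1 inhibitor, a difference of -1.30.

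With the GC content and length trends of each library removed, all 9 of these differences were smaller. For the CDK4/6 inhibitor they were -1.33 and 1.03 for RRM1, -0.25 and 0.16 for DCK and 0.31 for RRM2B. For the XPO1 inhibitor they were 1.03 for RRM1 and 0.48 for DCK, and for RRM2B under the combination -1.0 against the CDK4/6 inhibitor and -0.54 against the XPO1 inhibitor. No pair of these lines then moved in opposite directions by at least 0.5 each. For the CDK4/6 inhibitor, PLC stood at 0.02 for RRM1, -0.01 for DCK and 0.30 for RRM2B. For the XPO1 inhibitor, PLC stood at 0.33 for RRM1 and 0.05 for DCK. RRM2B under the combination stood at -0.73 in PLC and 0.27 in 97H against the CDK4/6 inhibitor. Against the XPO1 inhibitor it stood at -0.12 and 0.42.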

How the results depend on the processing

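Each line has 1 culture per treatment, depth is unknown, and the directions of RRM2B and DCK turned most often. For the combination against control, 3 members and 83 genes were called. Without the replicate block, which is the pairing by cell line, the counts were 0 and 0, and with no filter on low values they were also 0 and 0. With GC content and length trends removed 595 genes were called, and with all 10 libraries 261, with 4 members each. Leaving out 1 library gave 0 to 4 members and 0 to 184 genes. No called member changed direction under any alternative run. The block changed no other call.

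For the combination against the CDK4/6 inhibitor, where 0 were called, a pseudocount of 0.1 gave 1 member and 8 genes, median ratio scaling 1 and 4, trend removal 3 and 52, all 10 libraries 0 and 3, and leaving out 1 library 0 to 2 and 0 to 8. Against the XPO1 inhibitor, trend removal gave 4 and 64, and leaving out 1 library 0 to 2 and 0 to 6. For the XPO1 inhibitor against control, trend removal called 2 genes and leaving out 1 library 0 to 1, with no member. The cause was not tested.

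Directions that turned were all of members that were not called. For the XPO1 inhibitor against control, trend removal gave RRM1 -0.19, RRM2B -0.24 and DCK -0.19, all 10 libraries gave RRM1 -0.08, RRM2B -0.05 and DCK -0.03, and median ratio scaling gave RRM2B -0.04 and DCK -0.0018. For the combination against the XPO1 inhibitor, RRM2B was 0.03 with median ratio scaling and 0.15 with trends removed. In the interaction, RRM2B was 0.01 with trends removed and DUT 0.0025 with all 10 libraries. Leaving out 1 library, the values for the XPO1 inhibitor against control ranged from -0.62 to 0.81 for RRM1, -0.33 to 0.36 for RRM2B, -0.57 to 0.10 for TYMS, -0.57 to 0.01 for TK1, -0.31 to 0.19 for DUT, -0.95 to 0.13 for DTYMK and -0.54 to 0.66 for DCK. RRM2B ranged from -0.68 to 0.62 for the combination against control, -0.28 to 0.58 for the CDK4/6 inhibitor against control, -1.13 to 0.44 for the combination against the CDK4/6 inhibitor, -0.69 to 0.61 against the XPO1 inhibitor and -1.15 to 0.43 in the interaction. DCK ranged from -1.16 to 0.05 for the combination and from -0.55 to 0.10 for the CDK4/6 inhibitor against control.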

Other observations

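Among genes of other lists, the epithelial keratin KRT8 stood at 995 FPKM in PLC control, 2409 under CDK4/6 inhibition, 1356 under XPO1 inhibition and 1601 under both, and at 2113, 2577, 2761 and 4328 FPKM in 97H. KRT18, of the same list, was also above control in every treated library of both lines. EPCAM, of that list too, stood at 12.7, 24.5, 10.5 and 9.11 FPKM in PLC in the same order. In 97H EPCAM was at 0.0397 FPKM in control and 0.241 under both. CD68, a lysosomal protein used as a macrophage marker, was at 22.7, 64.0, 24.3 and 127 FPKM in PLC and at 48.5, 65.9, 51.0 and 81.1 FPKM in 97H, highest under the combination in both lines. It was at 2.77 FPKM in Huh7 control and 8.55 with the CDK4/6 inhibitor. None of the 3 epithelial genes and none of the 6 tested genes of other cell types was called for the combination against control, and the smallest adjusted p by limma was 0.22 and 0.166.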
